A study of Mus musculus with 6 samples.

Results

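The genes that make, load and present peptides on major histocompatibility complex (MHC) class I were followed across 6 mouse mammary cell lines. The 10 genes were taken by symbol from the deposited table of 23449 genes: B2m, H2-K1, H2-D1, Tap1, Tap2, Tapbp, Tapbpl, Psmb8, Psmb9 and Nlrc5. All 10 were found once, and all 10 passed the filter on low counts that left 13698 genes for testing. Messenger RNA was sequenced from 3 lines labelled 16IC and 3 lines labelled EIC, with 1 library per line. Lines are numbered here within their group in the order of deposit, and the title of EIC 2 ends in NT where the other titles end in a number, an ending the labels do not explain. EIC 2 was placed in its group by its genotype label. The labels give genotype 16IC/WT for the first group and EIC/WT for the second, the FVB/N strain and female sex for both, and doxycycline at 10 ug/mL with 10% fetal serum, EGF, insulin and pituitary extract in the medium of every line. As background known of the study's model, which the labels do not spell out, doxycycline turns on wild-type ErbB2, the receptor also called HER2, in EIC cells, and a splice form of HER2 that lacks a small extracellular exon in 16IC cells. No line without doxycycline was analysed here, so both groups carry an induced oncogene and neither is a baseline. The labels do not say whether lines of a group came from separate tumours or animals, so p-values here reflect only how much these lines vary, which may be technical. In bulk RNA, fewer cells of a type and less RNA per cell cannot be told apart.

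MHC class I molecules carry short peptides from inside the cell to its surface, where CD8+ T cells read them and natural killer cells sense their absence. A heavy chain (H2-K1 and H2-D1 in the mouse) pairs with the light chain beta-2-microglobulin (B2m). Peptides are cut in the cytosol by the proteasome, in which the inducible subunits Psmb8 and Psmb9 can take the place of the constitutive Psmb5 and Psmb6. The Tap1 and Tap2 transporter pumps them into the endoplasmic reticulum, where tapasin (Tapbp) and its relative TAPBPR (Tapbpl) help to choose and exchange the bound peptide. Nlrc5 is the transactivator of class I genes. It does not bind DNA itself but sits on a complex of RFX, CREB and NF-Y factors assembled on a promoter module named W/S, X and Y, and interferon and NF-kB sites lie further upstream.

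Because the promoter module is what links Nlrc5 to its targets, it was looked for in RefSeq promoter windows of build GRCm38.p6, which run from 250 bases before a gene's start to 50 after it. Windows were matched by symbol for 7 of the 10 genes. The stretch from the X2 box to the Y box, searched on both strands as TGACG, then any 20 bases, then ATTGG, was present in the windows of B2m, H2-K1 and H2-D1. It began 78 bases before the start of B2m, 41 bases before the outermost start of H2-K1 and 101 bases before the start of H2-D1. These are RefSeq starts, and the deposited bounds of H2-D1, given below, begin upstream of its stretch. Over all genes, 31 of 32817 windows held it, a share of 0.0945%, while TGACG alone occurred in 20.8% and ATTGG alone in 37.4%. The 3 stretches are shown because the spacing of the capitals is the same in all 3 and the bases between them differ. They lie at chr2:122147609-122147638 on the plus strand (B2m), chr17:34000359-34000388 on the minus strand (H2-K1) and chr17:35262993-35263022 on the plus strand (H2-D1), and each is written 5′ to 3′ with the X2 and Y boxes in capitals.
B2m: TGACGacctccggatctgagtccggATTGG
H2-K1: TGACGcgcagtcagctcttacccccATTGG
H2-D1: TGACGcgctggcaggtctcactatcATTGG

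The longer stretches before the starts of B2m and H2-K1 show how the interferon and NF-kB sequences stand in relation to that module. In the first, chr2:122147437-122147686 on the plus strand, capitals mark from left to right an interferon-stimulated response element in its consensus form (the first capitals, with any base at positions 5 and 6), found in 3.43% of windows, the X2 box and the Y box. In the second, chr17:34000348-34000597 on the minus strand, capitals mark the NF-kB palindrome (the first capitals), found in 10 windows or 0.0305% of them, the interferon element in its class I form, GAANNGAAA, on the opposite strand, found in 7.52% of windows, the X2 box and the Y box. None of the capitals overlap. The H2-D1 window also held the palindrome and the class I form, in the same order as H2-K1.
B2m before the start: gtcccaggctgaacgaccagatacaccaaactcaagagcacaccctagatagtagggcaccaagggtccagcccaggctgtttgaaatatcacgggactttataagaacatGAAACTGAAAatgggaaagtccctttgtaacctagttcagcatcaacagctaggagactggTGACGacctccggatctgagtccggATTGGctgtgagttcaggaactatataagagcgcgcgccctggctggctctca
H2-K1 before the start: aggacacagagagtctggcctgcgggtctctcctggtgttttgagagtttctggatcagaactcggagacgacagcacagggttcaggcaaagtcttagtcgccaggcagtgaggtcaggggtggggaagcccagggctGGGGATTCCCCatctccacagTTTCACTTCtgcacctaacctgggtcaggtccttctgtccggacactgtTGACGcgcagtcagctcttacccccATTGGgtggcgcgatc
The windows of Tap1, Psmb9, Tapbp and Psmb8 held no match at the 20-base spacing, and those of Tap2, Tapbpl and Nlrc5 were not analysed here. The RefSeq starts of Tap1 and Psmb9 lie 226 bases apart on opposite strands. A match of letters is not evidence that a factor was bound in these cells, and no match says only that these letters were not in the window.

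The 6 libraries held 15621563 to 16091846 counts in 16IC lines and 16742109 to 17468498 counts in EIC lines, and mitochondrial genes took 2.0 to 3.39% of them in 16IC lines and 0.926 to 1.5% in EIC lines. Leukocyte markers summed to 12.6 to 19.4 CPM (counts scaled to the library size, with TMM factors) in 16IC lines and 15.0 to 47.7 CPM in EIC lines over 6 of 12 markers. The largest share in every line was of the lysosomal protein gene Cd68, at 9.74, 7.39 and 18.9 CPM in 16IC 1, 16IC 2 and 16IC 3, against 17.5, 14.3 and 47.5 CPM in EIC 1, EIC 2 and EIC 3. Csf1r, the macrophage growth factor receptor, had 3.73, 4.64 and 0 CPM in 16IC lines and 0, 0.240 and 0 CPM in EIC lines. Ptprc, the pan-leukocyte gene CD45, reached at most 0.305 CPM in any line, so the levels below were measured where the defining leukocyte marker was near 0. The labelled mammary origin was checked in part on 10 luminal epithelial markers. They summed to 1650 to 9760 CPM in 16IC lines and 2550 to 3300 CPM in EIC lines. Their leading keratin, Krt8, stood at 578.6 to 2646 CPM in 16IC lines and 1344 to 1926 CPM in EIC lines. Krt18 stood at 561.4 to 1995 CPM in 16IC lines and 658.6 to 1192 CPM in EIC lines, where these keratins made up most of the sum. Epcam, an epithelial adhesion gene, stood at 50.96 to 1343 CPM in 16IC lines and was near absent in EIC lines, at 0.456 to 3.79 CPM. Cldn7, Elf5 and Esrp1 reached at most 0.559, 0.124 and 0.869 CPM in EIC lines. Cdh1, Cldn3 and Cldn4 stood there at 56.3 to 306.3, 45.0 to 191.0 and 0 to 27.95 CPM. Krt19 ran the other way, at 0 to 0.647 CPM in 16IC lines and 7.69 to 196.9 CPM in EIC lines.

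Apart from Tapbpl, the class I genes differed more between lines of a group than between the group means: in 8 of the 10 genes the highest levels were in 16IC 3 and EIC 2, and in 8 of the 10 the lowest were in 16IC 1 and 16IC 2. Across all 13698 tested genes, 9.93% had 16IC 3 and EIC 2 as the top pair, 16.8% had 16IC 1 and 16IC 2 as the bottom pair, and 3.61% had both, as 7 of the 10 genes here did. Relative to each gene's mean over the 6 lines on the log2 scale, the 10 genes averaged -1.02, -1.01 and 0.92 in 16IC 1, 16IC 2 and 16IC 3, and -0.05, 1.22 and -0.07 in EIC 1, EIC 2 and EIC 3. 16IC 1 and 16IC 2 thus lay below and 16IC 3 above the EIC 1 and EIC 3 pair. The span from the lowest to the highest line was 58.7-fold for Nlrc5, 17.5-fold for Psmb8 and 14.2-fold for Psmb9, and between 2.21-fold (Tapbp) and 5.49-fold (H2-D1) for the other 7. Tapbpl was the exception in order as well: its highest line was 16IC 1.

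**Figure D1:**
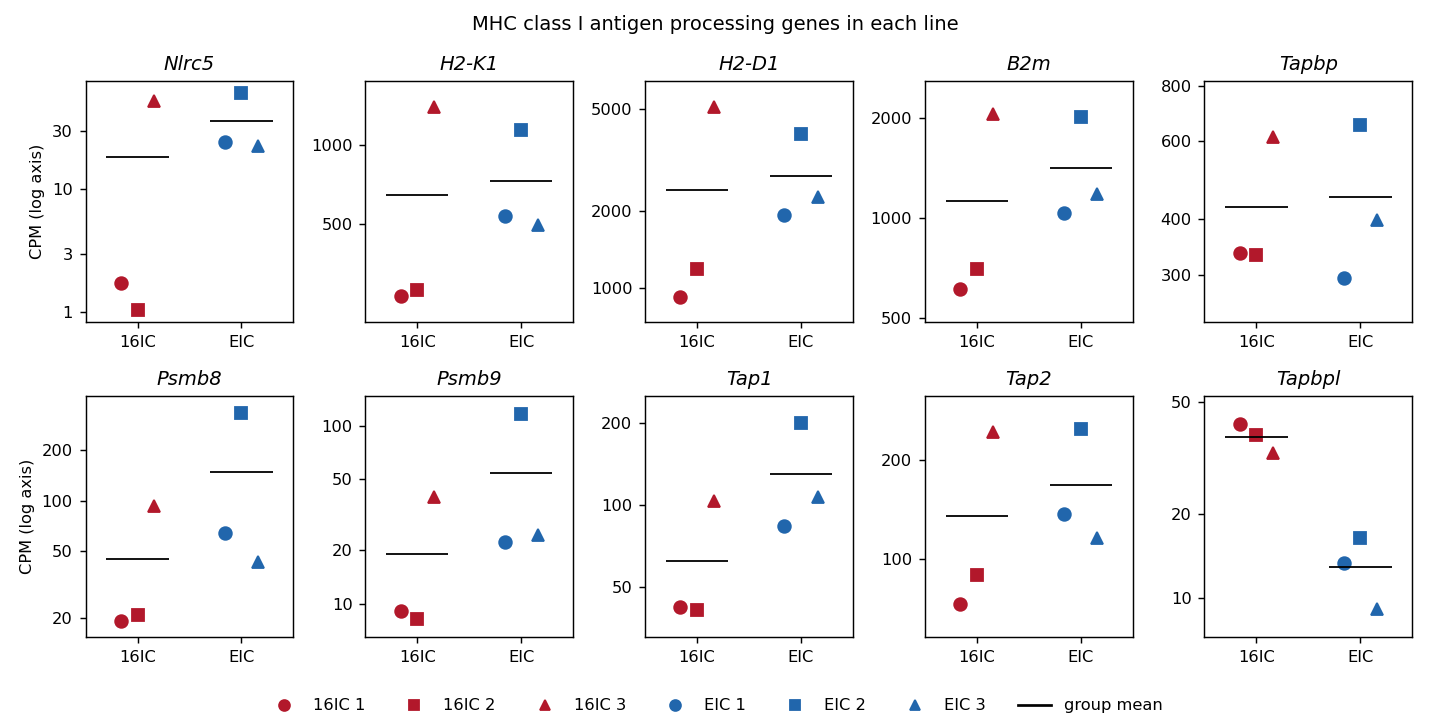
Level of each of the 10 genes in CPM on a log axis, with 1 point per line (circle, square and triangle for lines 1, 2 and 3), 16IC left in red and EIC right in blue, and the group mean as a bar. In 8 panels 16IC 3 and EIC 2 are the 2 highest points, and only in the Tapbpl panel do the groups not overlap.

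**Figure D2:**
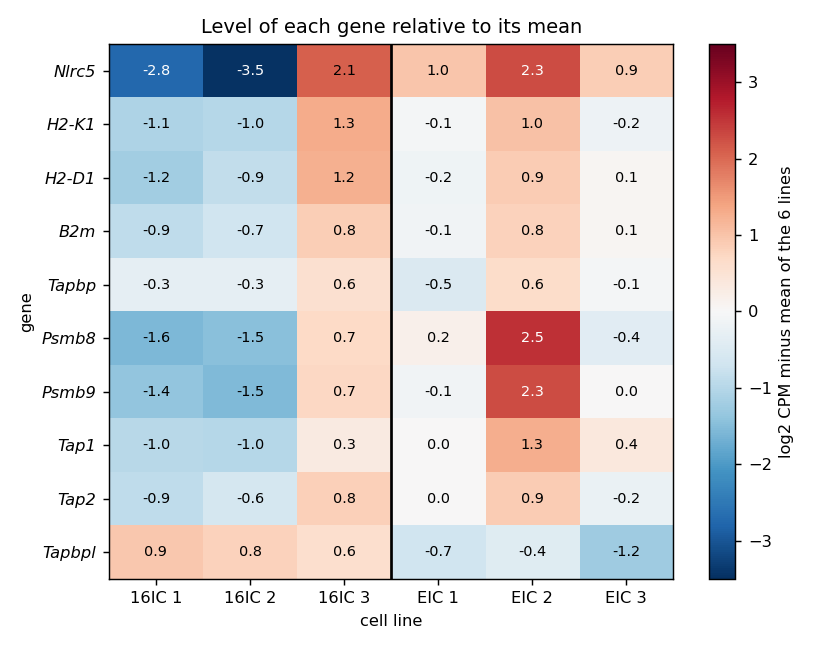
Log2 CPM of each gene minus its mean over the 6 lines, with genes down the page and lines across it (16IC left of the black line, EIC right). The columns of 16IC 1 and 16IC 2 are below the mean in 9 of the 10 genes, and the Nlrc5 row is the most uneven, at -2.76, -3.46 and 2.08 in 16IC lines and 0.98, 2.29 and 0.87 in EIC lines.

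Nlrc5 (ENSMUSG00000074151, GRCm38 chr8:94434356-94527272, plus strand), the class I transactivator, was almost silent in a pair of the 16IC lines. Its level was 1.74 CPM in 16IC 1, 1.04 CPM in 16IC 2 and 52.6 CPM in 16IC 3, against 24.6, 60.9 and 22.8 CPM in EIC 1, EIC 2 and EIC 3. These levels rest on 29, 17 and 814 counts in 16IC lines and 432, 1016 and 367 counts in EIC lines. 16IC 1 and 16IC 2 lay below every EIC line, and 16IC 3 lay inside the EIC range. The lowest EIC line had 13.1 times the level of 16IC 1 and 21.9 times that of 16IC 2. Within groups the highest line exceeded the lowest 50.7-fold among 16IC lines and 2.67-fold among EIC lines. With all lines the fitted log2 fold change was -0.97 with a standard error (SE) of 1.41 and an edgeR adjusted p of 0.732. In that fit the mean difference was smaller than its error. The estimate depended on the method: limma-voom on the same lines gave -2.85 (SE 1.26, limma-voom adjusted p = 0.241), also not called. DESeq2 gave no p-value for Nlrc5, which it does where a count is an outlier, and the authors' deposited table likewise holds no p-value for it.

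H2-D1 (ENSMUSG00000073411, chr17:35262730-35267499, plus strand) and H2-K1 encode the classical heavy chains, and in both the 16IC lines were spread farther apart than the group means. H2-D1 stood at 927.6, 1190 and 5096 CPM in 16IC 1, 16IC 2 and 16IC 3, against 1929, 3998 and 2259 CPM in EIC 1, EIC 2 and EIC 3. H2-K1 (ENSMUSG00000061232, chr17:33996017-34000333, minus strand) stood at 265.8, 279.7 and 1388 CPM in 16IC lines and 537.1, 1143 and 495.9 CPM in EIC lines. In both genes 16IC 3 was the highest of all 6 lines and 16IC 1 and 16IC 2 were below every EIC line. The group means were therefore close, with large spreads: H2-D1 averaged 2404 ± 2335 CPM in 16IC lines and 2729 ± 1112 CPM in EIC lines (SD, n = 3 each), and H2-K1 averaged 644.7 ± 644.2 CPM in 16IC lines and 725.2 ± 362.0 CPM in EIC lines (SD, n = 3 each). The log2 fold changes were -0.18 (SE 0.72, edgeR adjusted p = 0.906) for H2-D1 and -0.17 (SE 0.74, edgeR adjusted p = 0.916) for H2-K1.

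B2m (ENSMUSG00000060802, chr2:122147686-122153083, plus strand), on another chromosome, ran with the heavy chains. The light chain had 609.8, 702.5 and 2047 CPM in 16IC 1, 16IC 2 and 16IC 3, against 1036, 2002 and 1182 CPM in EIC 1, EIC 2 and EIC 3. 16IC 3 and EIC 2 were almost level at the top, and 16IC 1 and 16IC 2 were again below every EIC line. The fitted log2 difference was -0.33 (SE 0.55, edgeR adjusted p = 0.768). On the authors' FPKM, which divides by gene length, B2m averaged 1290 ± 944.1 in 16IC lines and 1581 ± 549.1 in EIC lines (SD, n = 3 each). On the same per-length scale H2-D1 averaged 925.8 FPKM in 16IC lines and 1022 FPKM in EIC lines, and H2-K1 averaged 245.6 FPKM in 16IC lines and 268.1 FPKM in EIC lines, so H2-D1 was the more abundant of the pair.

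The balance of heavy to light chain was steadier than either chain. The ratio of H2-K1 plus H2-D1 to B2m, in counts per length, was 0.651, 0.696 and 1.05 in 16IC 1, 16IC 2 and 16IC 3, against 0.792, 0.854 and 0.776 in EIC 1, EIC 2 and EIC 3. 16IC 1 and 16IC 2 had the lowest ratios and 16IC 3 had the highest, so the groups overlapped. The mean log2 ratio was -0.36 ± 0.38 in 16IC lines and -0.31 ± 0.07 in EIC lines (SD, n = 3 each), a difference of -0.05 with p = 1.0 in a two-sided exact permutation test. With 3 lines against 3, the smallest p this test can give is 0.1, so no ratio in this design could pass 0.05.

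The inducible proteasome subunits had the widest spread among EIC lines. Psmb8 (ENSMUSG00000024338, chr17:34197721-34201454, plus strand), also called LMP7, had 19.2, 20.8 and 93.6 CPM in 16IC 1, 16IC 2 and 16IC 3, against 64.4, 336.5 and 43.3 CPM in EIC 1, EIC 2 and EIC 3. Psmb9 (ENSMUSG00000096727, chr17:34181988-34187764, minus strand), also called LMP2, had 9.14, 8.18 and 39.8 CPM in 16IC lines and 22.2, 116.5 and 24.4 CPM in EIC lines. EIC 2 stood alone at the top of both genes, 16IC 3 came next, and 16IC 1 and 16IC 2 were below every EIC line. The highest EIC line exceeded the lowest EIC line 7.77-fold for Psmb8 and 5.26-fold for Psmb9. The log2 fold changes were -1.73 (SE 1.0, edgeR adjusted p = 0.359) for Psmb8 and -1.51 (SE 0.92, edgeR adjusted p = 0.383) for Psmb9, neither past the threshold. Without EIC 2 they were -0.28 and -0.30.

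Set against the constitutive subunits they can replace, Psmb8 and Psmb9 were high and low in the same lines. The ratio of Psmb8 to Psmb5 in counts per length was 0.258, 0.283 and 1.63 in 16IC lines and 0.820, 1.65 and 0.555 in EIC lines. The ratio of Psmb9 to Psmb6 was 0.0488, 0.0504 and 0.356 in 16IC lines and 0.132, 0.575 and 0.172 in EIC lines. The third inducible subunit, Psmb10, gave ratios to Psmb7 of 0.326, 0.330 and 1.37 in 16IC lines and 0.669, 2.22 and 0.476 in EIC lines. In all 3 pairs 16IC 1 and 16IC 2 had the lowest ratios and 16IC 3 and EIC 2 the highest. The mean log2 differences were -0.88, -1.30 and -0.76, with p = 0.4, 0.3 and 0.5 in two-sided exact permutation tests (n = 3 lines each). Leaving out single lines moved them from -1.75 to -0.42, from -2.25 to -0.65 and from -1.44 to -0.10; each was farthest from 0 without 16IC 3. The first was nearest to 0 without 16IC 1 and the other pair without EIC 2.

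**Figure D3:**
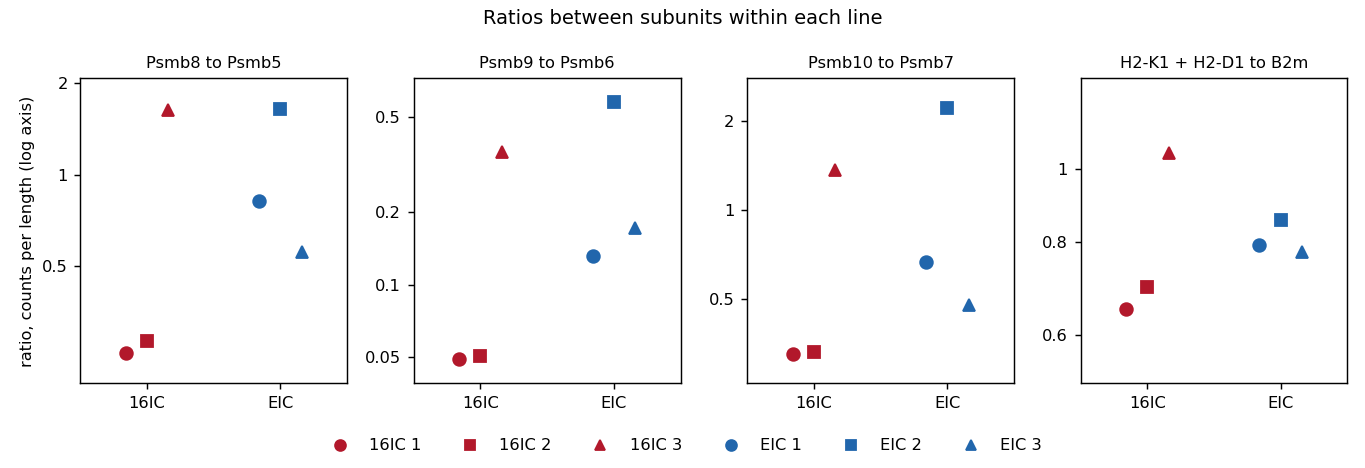
Ratios within each line of an inducible to a constitutive proteasome subunit and of the class I heavy chains to B2m, in counts per gene length on log axes, with 1 point per line, 16IC left in red and EIC right in blue. 16IC 1 and 16IC 2 hold the lowest points in all 4 panels, and the heavy to light chain panel covers the narrowest range, 0.651 to 1.05.

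One of these denominators did not hold still. Psmb5 was at 26.8, 26.2 and 20.9 FPKM in 16IC lines and 27.9, 70.7 and 28.4 FPKM in EIC lines, so that EIC 2 alone was high. The ratio of Psmb8 to Psmb5 in EIC 2, 1.65, therefore sat level with that in 16IC 3, 1.63, although Psmb8 itself was higher in EIC 2. Psmb6 and Psmb7 ranged from 30.6 to 52.4 and from 15.6 to 25.0 FPKM over the 6 lines.

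The peptide transporter genes had different orders of lines. Tap1 (ENSMUSG00000037321, chr17:34187553-34197225, plus strand) had 42.0, 41.0 and 103.7 CPM in 16IC 1, 16IC 2 and 16IC 3, against 83.8, 200.3 and 106.6 CPM in EIC 1, EIC 2 and EIC 3. Its order had EIC 2 first and EIC 3 just above 16IC 3, so 16IC 3 was in the middle of the EIC range. Tap1 averaged 62.3 ± 35.9 CPM in 16IC lines and 130.2 ± 61.8 CPM in EIC lines (SD, n = 3 each), a log2 fold change of -1.07 (SE 0.50, edgeR adjusted p = 0.269). Tap2 (ENSMUSG00000024339, chr17:34203527-34216321, plus strand) had 72.5, 89.2 and 243.5 CPM in 16IC lines and 136.8, 249.3 and 116.0 CPM in EIC lines. There 16IC 3 was level with EIC 2, and the fitted log2 difference was -0.31 (SE 0.54, edgeR adjusted p = 0.777). Per length, Tap1 averaged 11.26 FPKM in 16IC lines and 22.96 FPKM in EIC lines, and Tap2 averaged 35.4 FPKM in 16IC lines and 42.7 FPKM in EIC lines.

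Tapasin, which bridges the transporter to the heavy chain, varied least. Tapbp (ENSMUSG00000024308, chr17:33915899-33929288, plus strand) had 335.9, 333.3 and 612.1 CPM in 16IC 1, 16IC 2 and 16IC 3, against 295.2, 651.7 and 399.5 CPM in EIC 1, EIC 2 and EIC 3. 16IC 3 and EIC 2 were the highest here too, but the lowest line was EIC 1 and all 3 16IC lines lay inside the EIC range. The fitted log2 difference was -0.07 (SE 0.39, edgeR adjusted p = 0.935).

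Tapbpl (ENSMUSG00000038213, chr6:125223933-125231860, minus strand), the peptide editor related to tapasin, was higher in every 16IC line. It had 41.7, 38.2 and 33.0 CPM in 16IC 1, 16IC 2 and 16IC 3, against 13.4, 16.3 and 9.12 CPM in EIC 1, EIC 2 and EIC 3. The lowest 16IC line was above the highest EIC line, and 16IC 3 was the lowest of its group while EIC 2 was the highest of its group. Tapbpl averaged 37.6 ± 4.39 CPM in 16IC lines and 12.9 ± 3.61 CPM in EIC lines (SD, n = 3 each), a log2 fold change of 1.54 (SE 0.27, edgeR adjusted p = 0.0492). The call sat close to the threshold and was kept under 7 of 15 alternatives. It was lost without 16IC 1 (edgeR adjusted p = 0.197), 16IC 2 (0.194), EIC 1 (0.164), EIC 2 (0.0536) or EIC 3 (0.164). It was also lost with no filter (0.0735), in the robust fit (0.0508) and with 16IC 1 and 16IC 2 averaged (0.194). The log2 fold change stayed between 1.33 and 1.82 in every edgeR, limma-voom and DESeq2 alternative. Over all tested genes, the fits without 16IC 2, EIC 1 or EIC 3 and with the averaged pair called 0. That without 16IC 1 called 5. Loss of the call in those fits was therefore not particular to Tapbpl. The fit without EIC 2, that with no filter and the robust fit called 282, 223 and 307 genes. Tapbpl lies within the bounds of Vamp1 on the opposite strand, and the sources used here do not state whether the counting used strand. In the GENCODE annotation of GRCm38 the exons of the pair share 0 of the 2352 exon bases of Tapbpl; the annotation used for counting was not given. Vamp1 had 267, 354 and 571 counts in 16IC lines and 147, 38 and 258 counts in EIC lines, and its part in the Tapbpl values was not tested.

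Over all 13698 tested genes, edgeR's quasi-likelihood test called 335 at a Benjamini-Hochberg adjusted p under 0.05, which is 2.45%, with 1.25% higher and 1.20% lower in 16IC. Among the 10 class I genes it called Tapbpl higher and 0 lower. At an unadjusted p under 0.05, which 22.7% of all tested genes met, Tapbpl was again the 1 gene. limma-voom, which called 2.10% of genes, and DESeq2, which called 12.8%, also called 1 of the 10, Tapbpl in each case. 9 of the 10 log2 fold changes were negative, as were 50.3% of those over all genes, and their median was -0.32 against -0.0044 over all genes. Groups that did not overlap were found for 1 of the 10, Tapbpl, and for 31.4% of all genes, 17.2% with 16IC above EIC and 14.2% with 16IC below.

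Line by line, 16IC 1 and 16IC 2 were each below all 3 EIC lines in the same 8 genes (B2m, H2-K1, H2-D1, Tap1, Tap2, Psmb8, Psmb9 and Nlrc5), while 31.4% and 30.6% of all tested genes had these lines below all EIC lines. Both were above all EIC lines for Tapbpl, as for 32.1% and 32.3% of all genes, and inside the EIC range for Tapbp. 16IC 3 was below all EIC lines in 0 of the 10, against 34.3% of all genes, and above all of them in 4, B2m, H2-K1, H2-D1 and Tapbpl, against 35.4%. The fitted differences moved accordingly when a line was left out. Without 16IC 3 the median log2 fold change of the 10 genes was -1.39, and Nlrc5 was called at a log2 fold change of -4.69 (SE 0.67, edgeR adjusted p = 0.0167) beside Tapbpl. In that fit 9 of the 10 had an unadjusted p under 0.05, as did 31.0% of all genes, and after adjustment edgeR called 13.4% of all genes, 6.60% higher and 6.82% lower. Without EIC 2 the median was 0.05, and 0 of the 10 were called in edgeR, against 1.96% of all genes. At an unadjusted p under 0.05 that fit held 1 of the 10 and 22.7% of all genes. Leaving out 16IC 3 or EIC 2, the highest pair in 8 of the 10, moves the group means in a direction set beforehand. The p-values of these fits therefore describe the lines kept and not the genotypes.

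With both 16IC 3 and EIC 2 left out, 8 of the 10 were called lower in 16IC and Tapbpl was called higher, where edgeR called 15.6% of all genes lower and 13.5% higher. Nlrc5 then had a log2 fold change of -4.08 (SE 0.32, edgeR adjusted p = 0.00110). Tap1, Psmb8 and Psmb9 had -1.20, -1.43 and -1.43, and H2-K1, H2-D1, B2m and Tap2 lay between -0.99 and -0.65. Tapbp was the 1 gene not called, at -0.06 (edgeR adjusted p = 0.856). These 2 lines were known from earlier results of the same data to stand apart, and they hold the highest class I levels, so this fit describes 16IC 1 and 16IC 2 against EIC 1 and EIC 3 and not the genotypes.

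**Figure D4:**
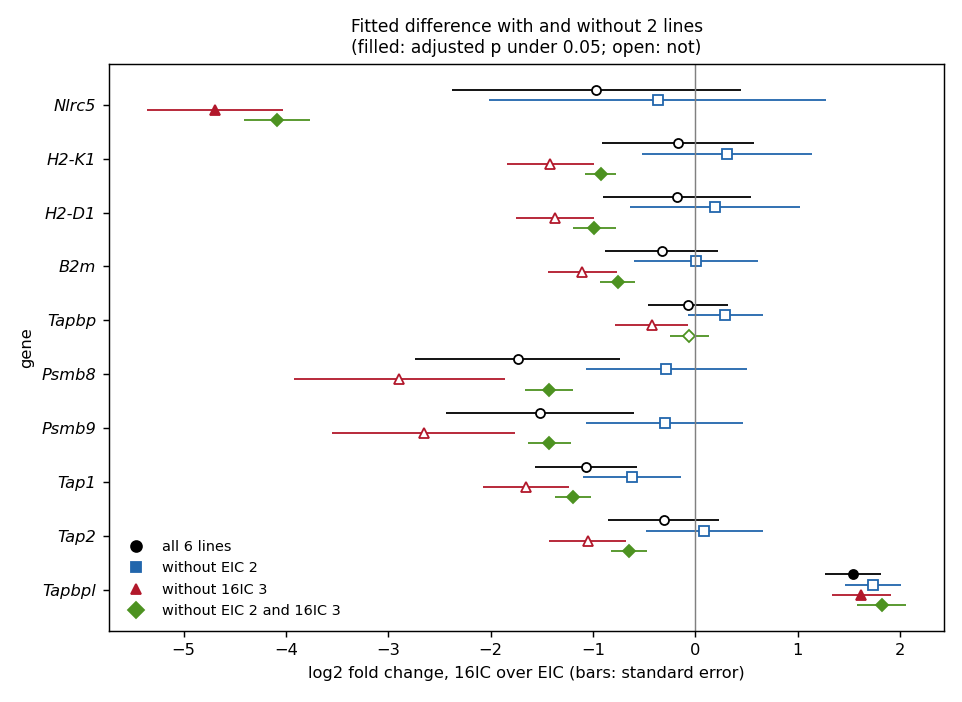
Fitted log2 fold change, 16IC over EIC, of each gene with its standard error as a bar, from edgeR with all 6 lines (black circles), without EIC 2 (blue squares), without 16IC 3 (red triangles) and without both (green diamonds). Filled symbols have an adjusted p under 0.05. Tapbpl stays between 1.54 and 1.82 in the 4 fits, while Nlrc5 lies between -4.69 and -0.37.

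Related genes were read in 9 lists with 95 genes, of which 84 were tested. edgeR called 1 of the 84 lower and 0 higher, against 1.20% and 1.25% of all tested genes. An unadjusted p under 0.05 was met by 7, against 22.7% of all tested genes. Groups did not overlap for 16 of the 84, against 31.4%, and 57 log2 fold changes were negative, against 50.3%. These shares over all genes are the background for each list below. limma-voom, which called 2.10% of all genes, also called 1, Socs1. DESeq2, which called 12.8%, called 4, Socs1, H2-M3 and Hspa5 lower and H2-Q2 higher. The 1 edgeR call, in the list of 17 genes for interferon and NF-kB input, was Socs1, an inhibitor of JAK-STAT signalling that is itself switched on by interferon. Socs1 had 4.63, 2.93 and 3.04 CPM in 16IC 1, 16IC 2 and 16IC 3, against 22.3, 17.1 and 14.1 CPM in EIC 1, EIC 2 and EIC 3. All 3 16IC lines were below all EIC lines, as in 14.2% of all tested genes, and 16IC 3 was as low as 16IC 2. The fitted log2 difference was -2.33 (SE 0.34, edgeR adjusted p = 0.0390). It was called under 9 of 15 alternatives. The call was lost without 16IC 1, 16IC 2, EIC 1, EIC 2 or EIC 3 and with 16IC 1 and 16IC 2 averaged. In those fits the edgeR adjusted p ran from 0.0548 to 0.171, while the log2 fold change stayed between -2.58 and -2.14 in all 15. Over all tested genes, the fits without 16IC 2, EIC 1 or EIC 3 and with the averaged pair called 0. That without 16IC 1 called 5 and that without EIC 2 called 282. Loss of the call in the fits that called 0 or 5 genes was therefore not particular to Socs1. The other 16 genes of that list were not called, and its median log2 fold change was -0.09. Irf9, a partner of STAT proteins in type I interferon signalling, had the next smallest p, at a log2 fold change of -0.77 (SE 0.37, edgeR adjusted p = 0.281).

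Of 18 other class I heavy chains and class I-like genes listed, 13 were tested. 16IC 3 and EIC 2 were the highest pair in 8 of them and 16IC 1 and 16IC 2 the lowest pair in 11. Both held in 6 of the 13, H2-Q1, H2-Q6, H2-Q7, H2-T10, Cd1d1 and Fcgrt, and in 3.61% of all tested genes. edgeR called 0, 1 had an unadjusted p under 0.05, 11 had a negative log2 fold change, and the median was -0.72. H2-M3, which presents formylated peptides, had 5.53, 8.37 and 14.4 CPM in 16IC lines and 17.1, 33.7 and 21.5 CPM in EIC lines. Its groups did not overlap, as for 31.4% of all tested genes. The log2 fold change of H2-M3 was -1.35 (SE 0.45, edgeR adjusted p = 0.146). Its promoter window was 1 of the 31 that held the X2 to Y stretch. H2-T24 had 0.66, 0 and 1.29 CPM in 16IC lines and 1.71, 2.76 and 5.90 CPM in EIC lines, a log2 fold change of -2.40 (SE 1.18, edgeR adjusted p = 0.289). Among genes chosen after their values were seen, H2-Q6 repeated the near silence of Nlrc5, with 0.30, 0.12 and 24.6 CPM in 16IC lines and 6.89, 72.2 and 9.81 CPM in EIC lines. H2-Q2 ran the other way, with 116, 163 and 1 counts in 16IC lines and 0 counts in each EIC line, and did not pass the filter on low counts.

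Among the helpers of peptide loading no gene passed the edgeR test. Of 9 genes for loading and trimming in the endoplasmic reticulum 0 were called, 2 had an unadjusted p under 0.05, and the median log2 fold change was -0.26. Hspa5, the chaperone BiP, averaged 732.6 ± 113.2 CPM in 16IC lines and 1631 ± 289.9 CPM in EIC lines (SD, n = 3 each), at a log2 fold change of -1.15 (SE 0.25, edgeR adjusted p = 0.0695). Canx, the lectin chaperone calnexin, averaged 542.5 ± 54.8 CPM in 16IC lines and 778.5 ± 108.7 CPM in EIC lines (SD, n = 3 each), at -0.52 (SE 0.21, edgeR adjusted p = 0.208). Of 7 cytosolic peptidases 0 were called, 1 had an unadjusted p under 0.05 and the median was -0.09, with the 2 smallest p in Nrd1 (-0.52, edgeR adjusted p = 0.211) and Thop1 (-0.33, edgeR adjusted p = 0.295).

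In the list of proteasome activators and inducible assembly, 6 genes were tested. edgeR called 0 of them and 0 had an unadjusted p under 0.05. All 6 log2 fold changes were negative, with a median of -0.69. Psme1, a subunit of the interferon-inducible activator PA28, had 44.4, 43.9 and 47.2 CPM in 16IC lines and 41.7, 205.8 and 45.6 CPM in EIC lines. Psme2, its partner, had 33.7, 25.4 and 40.1 CPM in 16IC lines and 34.7, 176.6 and 31.1 CPM in EIC lines. EIC 2 stood out in both, whereas Psmb8 and Psmb9 were also higher in 16IC 3 than in 16IC 1 and 16IC 2. The edgeR adjusted p was 0.360 for Psme1 and 0.341 for Psme2. Psme1 (chr14:55578123-55581529), Psme2 (chr14:55587441-55591113) and Psmb5 (chr14:54614119-54618022) lie together on chromosome 14, where neighbouring genes, looked at after these values were seen, were also high in EIC 2. Of 52 tested genes within 1 Mb of the 3, these included, 48 were higher in EIC 2 than in EIC 1 and EIC 3, with a median log2 ratio of EIC 2 to the mean of the other EIC lines of 1.02, against 0.45 over 436 genes of chromosome 14, -0.02 over 677 genes of chromosome 17 and -0.0044 over all tested genes. Psmb8, Psmb9, Tap1, Tap2, Tapbp, H2-K1 and H2-D1 are on chromosome 17. The value of -0.02 covers the whole of that chromosome, and the stretch around these genes was not looked at separately. Of the 14 constitutive core subunits edgeR called 0, and 0 had an unadjusted p under 0.05, around a median of -0.14. Psmb5 (-0.81, edgeR adjusted p = 0.320) and Psmb3 (-0.27, edgeR adjusted p = 0.407) had the smallest p.

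Among 8 genes for the factors that hold Nlrc5 on the promoter, 16IC 3 and EIC 2 were the highest pair in 0, a count close to the 9.93% of all tested genes with that pair on top. Of these RFX, CREB and NF-Y genes, 0 were called, 1 had an unadjusted p under 0.05, and the median log2 fold change was -0.13. Atf1, of the CREB family, averaged 58.6 ± 11.9 CPM in 16IC lines and 90.1 ± 9.89 CPM in EIC lines (SD, n = 3 each), at -0.62 (SE 0.21, edgeR adjusted p = 0.149), and Nfyc, an NF-Y subunit, had -0.50 (edgeR adjusted p = 0.237). Of the 7 tested repressors and surface turnover genes 0 were called, 1 had an unadjusted p under 0.05, and the median was 0.32. Tmem127, part of a route that takes class I molecules off the surface, had 155.0, 189.9 and 133.6 CPM in 16IC lines and 106.0, 85.7 and 101.9 CPM in EIC lines. Its groups did not overlap, as for 31.4% of all tested genes, at a log2 fold change of 0.70 (SE 0.19, edgeR adjusted p = 0.107). Ezh2, the methyltransferase of Polycomb complex PRC2, had 0.68 (edgeR adjusted p = 0.314). Of 8 MHC class II genes 3 were tested, and edgeR called 0, or 0 without adjustment of p. Ciita, the class II counterpart of Nlrc5, stayed low, at 0.37 to 4.85 CPM in 16IC lines and 0.12 to 1.42 CPM in EIC lines (edgeR adjusted p = 0.483), and H2-DMa stood at 0.85 to 3.62 CPM in 16IC lines and 1.31 to 11.4 CPM in EIC lines (edgeR adjusted p = 0.490).

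**Figure D5:**
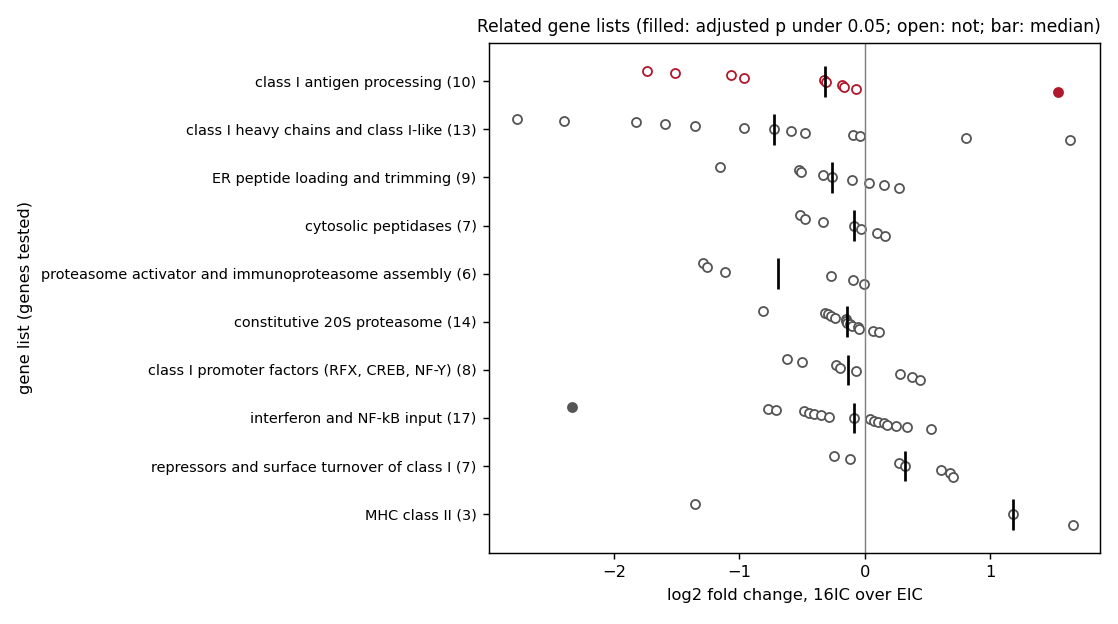
Fitted log2 fold change, 16IC over EIC, of the 10 class I genes (red, top) and of the tested genes of the 9 related lists (grey), with 1 point per gene, the number tested in parentheses and the median of each list as a black bar. Filled points have an edgeR adjusted p under 0.05: Tapbpl at 1.54 in the top row and Socs1 at -2.33 among the interferon and NF-kB genes.

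The genes whose profile over the 6 lines lay nearest to the mean profile of the 10 were sought among 10349 genes averaging at least 5 CPM, by the root mean square difference of centred log2 CPM. Fkbp14 was nearest, at 0.11, with 5.59, 4.70 and 22.5 CPM in 16IC lines and 10.0, 24.1 and 9.43 CPM in EIC lines. S100a13 (0.16), Il18bp (0.20), Plscr1 (0.23), Tob1 (0.23), Tef (0.24), H2-T-ps (0.24) and H2-Q1 (0.25) followed. The nearest to Nlrc5 itself were Pfkfb4 (0.27), Ssbp2 (0.39) and Ccl9 (0.43). Pfkfb4 had 0.66, 0.49 and 19.5 CPM in 16IC lines and 7.80, 22.7 and 6.39 CPM in EIC lines. The nearest to Tapbpl were Greb1l (0.17), Hsd17b7 (0.18) and Plxna3 (0.19), none of them called, with edgeR adjusted p from 0.0740 to 0.0926. With 6 lines and so many genes, close profiles are a description of these libraries.

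Markers of cell state moved with the class I order in part. The mesenchymal and fibroblast list, 8 of 10 markers, summed to 144, 225 and 3670 CPM in 16IC 1, 16IC 2 and 16IC 3, against 4110, 8110 and 4790 CPM in EIC 1, EIC 2 and EIC 3, and 0 of its 7 tested genes were called. Vim, the intermediate filament vimentin, had 107.3, 182.0 and 2092 CPM in 16IC lines and 2680, 4382 and 3727 CPM in EIC lines. 16IC 1 and 16IC 2 were lowest and EIC 2 was highest for Vim, with 16IC 3 below every EIC line. Vim was the 1 gene of the 8 with 16IC 3 below the EIC lines: 16IC 3 was inside the EIC range in 5, as for Nlrc5, and above it in 2, Pdgfrb and Col1a1. Fn1, the matrix protein fibronectin, had 27.8, 31.6 and 1507 CPM in 16IC lines and 1298, 3660 and 903.8 CPM in EIC lines, with 16IC 3 and EIC 2 as the highest pair. Zeb1, a transcription factor of the mesenchymal state, had 1.56, 2.32 and 45.6 CPM in 16IC lines and 38.4, 57.6 and 53.1 CPM in EIC lines. Pdgfrb, a growth factor receptor, had 0.180, 0 and 5.69 CPM in 16IC lines and 0.740, 4.26 and 0.559 CPM in EIC lines, again highest in 16IC 3 and EIC 2. The remaining genes of the list did not follow the class I order. Pdgfra had 4.03, 4.21 and 15.3 CPM in 16IC lines and 87.6, 1.98 and 99.8 CPM in EIC lines. Col1a1 had 3.13, 4.76 and 4.98 CPM in 16IC lines and 0.512, 1.08 and 1.99 CPM in EIC lines. Dcn had 0, 0 and 1.23 CPM in 16IC lines and 0.797, 0.240 and 1.86 CPM in EIC lines. Col1a2 had 0.120, 0.0611 and 0 CPM in 16IC lines and 0, 3.84 and 0 CPM in EIC lines. The luminal list summed to 9700, 9760 and 1650 CPM in 16IC lines and 3300, 2550 and 3250 CPM in EIC lines, with 2 of its 10 genes called higher in 16IC. Basal markers summed to 1.59 to 16.4 CPM in 16IC lines and 0.248 to 11.6 CPM in EIC lines, endothelial markers to 0.120 to 0.582 CPM in 16IC lines and 0.240 to 3.81 CPM in EIC lines, and adipocyte markers to 0.183 to 1.88 CPM in 16IC lines and 0.240 to 42.1 CPM in EIC lines. The part of these markers in the class I levels was not tested.

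Counting limits bear on some of the genes. H2-D1 and H2-K1 share 12.8% and 9.63% of their 50-base words with transcripts of other genes in the GENCODE M21 annotation, chiefly other class I genes such as H2-Q1, H2-Q10 and H2-Q7, and the sources used here do not state how reads that match several genes were counted. FVB/N mice carry another MHC haplotype than the C57BL/6 reference, as background, so levels of single H2 genes are less certain than those of B2m, Psmb9 and Nlrc5, of whose words 0% are shared. By the deposited gene bounds, which differ from the RefSeq starts used for the promoter windows, Tap1 and Psmb9 overlap by 212 bases on opposite strands. Tapbp overlaps Zbtb22 by 3421 bases on the same strand. Zbtb22 had 959, 1057 and 695 counts in 16IC lines and 831, 821 and 786 counts in EIC lines. The part of Zbtb22 in the Tapbp values was not tested.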

How the data were processed

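RNA from 6 cultured lines was sequenced (NEBNext Ultra II libraries, per the labels' protocols). Per the submitters' processing notes, the tools included STAR, HTSeq, Trimmomatic, limma and edgeR, on builds GRCm38 and mm10. Their roles, versions, strand setting and annotation were not given in the sources used here. As deposited, the table holds the authors' whole-number counts per gene, counts divided by a size factor as a normalised signal, FPKM, gene length, and the authors' log2 fold change, p-value and adjusted p-value.

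Computations started from the counts: edgeR's filterByExpr (minimum count 10), TMM scaling and the quasi-likelihood test of 16IC against EIC (R 4.3.3 and edgeR 4.0.16), called at 0.05 after Benjamini-Hochberg adjustment over 13698 genes. The SE of an edgeR log2 fold change was its size divided by the square root of the quasi-likelihood F statistic. CPM were averaged over the 3 lines of a group. Ratios used counts divided by gene length and were compared by exact permutation (scipy 1.17.1). Profiles used log2 of CPM plus 0.1. The test was checked on simulated data with the same added relative spread for every gene and no pattern shared between lines. That check does not cover lines as uneven as these. The 10 genes, the lists, the marker lists and the alternatives were chosen with earlier results of these data known. The text names the 10 genes, every called gene of a list and its 2 genes with the smallest p, and the nearest profiles. Alternatives were DESeq2 (1.42.0) size factors, upper-quartile factors, no filter, a filter of 1 CPM in 3 libraries, leaving out lines, averaging 16IC 1 and 16IC 2, a robust fit, limma-voom (limma 3.58.1), DESeq2, and adjusted p thresholds of 0.01 and 0.1.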

Additional observations from a re-analysis of the deposited data

How the results depend on the processing

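The count of class I genes called was 1 under DESeq2 size factors, upper-quartile factors, the 1 CPM filter, limma-voom and DESeq2. It was 0 with no filter, with 16IC 1 and 16IC 2 averaged, with the robust fit and at an adjusted p under 0.01, 9 without EIC 2 and 16IC 3 together, and 0 to 2 when single lines were left out. Over all genes 335 were called, against 223 with no filter, 0 with the averaged pair, 4092 without both lines, 2041 by DESeq2, 0 at 0.01, 1184 at 0.1 and 0 to 1913 without single lines. At an unadjusted p under 0.05 the fit with the averaged pair still held 2257 genes. Of the related genes 1 was called, against 0 with the averaged pair, 23 without both lines, 4 by DESeq2, 0 at 0.01, 2 at 0.1 and 0 to 12 without single lines.

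Over the 10 genes and 15 alternatives, 118 of the log2 fold changes kept their sign and side of the threshold, 1 (Nlrc5 by DESeq2) kept its sign and had no adjusted p, 9 became called, 8 lost the call (all Tapbpl) and 14 changed sign. None of the 14 passed the test. Without EIC 2 the values were 0.0073 for B2m, 0.312 for H2-K1, 0.192 for H2-D1, 0.0886 for Tap2 and 0.292 for Tapbp. For H2-K1, H2-D1 and Tapbp they were 0.199, 0.202 and 0.0743 without 16IC 1, 0.184, 0.137 and 0.0747 without 16IC 2, and 0.191, 0.169 and 0.0737 with the averaged pair. Without single lines B2m ranged from -1.1 to 0.0073, H2-K1 from -1.41 to 0.312, H2-D1 from -1.37 to 0.202, Tap2 from -1.05 to 0.0886 and Tapbp from -0.427 to 0.292, each lowest without 16IC 3. The log2 ratio of heavy chains to B2m ranged from -0.261 to 0.0863, changing sign without 16IC 1 (0.0863) and 16IC 2 (0.0381). The cause was not tested. Fits that leave 1 line out, or average 2, rest on fewer lines. No paired analysis was possible because the labels give the lines no shared replicate numbers. With 3 lines a group, the SE of the log2 fold change ran from 0.27 (Tapbpl) to 1.41 (Nlrc5). An SE is not a limit of detection, and differences well above it could go uncalled here. Tap1, at -1.07 with an SE of 0.50, had an edgeR adjusted p of 0.269. Hspa5, at -1.15 with an SE of 0.25, had an edgeR adjusted p of 0.0695.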
